A study of Mus musculus with 10 samples.

Results

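The Eph receptors and ephrins that sort cells along the crypt were followed across 5 cell populations of the mouse small intestine. The 7 genes are Ephb2, Ephb3, Ephb4 and Epha2, which encode receptors, and Efnb1, Efnb2 and Efna1, which encode their ligands. They were chosen by name, as 7 of the 35006 genes with a row of counts, and all 7 passed the filter on low counts that left 13708 genes for testing. Eph receptors are receptor tyrosine kinases of the cell surface. Ephrins are bound to the membrane of the neighbouring cell, so the signal needs cell contact and runs into both cells. In the intestine EphB receptors are known targets of Wnt signalling that are high in the lower crypt, ephrin-B ligands are known to rise towards the villus, and repulsion between them keeps Paneth cells at the crypt base.

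All libraries came from EF1a-OSCAR mice of the strain C57BL6/J, and neither age nor sex was stated. OSCAR is a reporter made of mCherry and VeN90, a form of Venus that dims when the kinase CDK9 phosphorylates it, and a high ratio marks cells with little Ser2 phosphorylation of RNA polymerase II. The transgene sits in the Rosa26 locus under the EF1a promoter, and its stop cassette had been removed in the germ line by Vasa-Cre, so every group carries it in all cells and no group lacks it. Live EpCAM+ crypt cells were sorted into P1 (OSCARlow EF1alow), P2 (OSCARhigh EF1alow), P3 (OSCARlow EF1ahigh), P4 (OSCARmed EF1alow) and P5 (OSCARmed EF1ahigh), where EF1a low or high is the overall brightness of the reporter. Poly-A RNA of 10000 cells per library was sequenced in 2 libraries per population, which the study calls biological replicates.

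The 10 libraries held 3857612 to 6485823 reads on genes. The sort marker Epcam was present in each, at 541 to 1608 CPM. CPM are reads divided by the library total after scaling by TMM (edgeR's trimmed mean of M-values), and they are the scale of every level below. The libraries labelled P2 gave 43.2% and 32.4% of their reads to the Paneth cell genes, which took 0.0823% to 6.77% elsewhere, whereas the study's text assigns the secretory cells to P3. The libraries labelled P3 gave 59.2% and 36.1% of their reads to mitochondrially encoded genes, against 1.04% to 5.19% in the other 8. Cycling genes summed to 301 and 220 CPM in P2 and to 934 and 1425 in P3. No library was renamed, and "P2" and "P3" below mean the libraries with those labels. Enterocyte genes were highest in P1, with a sum of 66456 and 50659, and stem cell genes in P4 and P5, with sums of 4374 to 7281. Lymphocyte genes summed to 1163 and 330 in P1, to 172 in P3 replicate 1 and to at most 22.9 in the other 7 libraries. Haemoglobin and other erythroid genes summed to 194 and 104 in P3 and to at most 32.7 elsewhere.

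Ephb4 and Efnb2 are also well known from blood vessels. The defining endothelial genes Cdh5 and Emcn had no read in any of the 10 libraries, Kdr had at most 2 reads, Flt1 at most 3, Tek at most 10 and Pecam1, which blood cells also express, at most 23, and the 10 genes of the endothelial list summed to 3.17 to 13.8 CPM. In these sorted pools, fewer cells of a type and less RNA per cell cannot be told apart.

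The DNA just before the start of the genes that moved most, or moved together, is shown for the 3 EphB receptors and the 2 ephrin-B ligands. The windows are the RefSeq promoters of GRCm38.p6, cut at the first annotated base of the gene, and each matched 1 place in NCBIM37, the build of the counts. Ephb2 lies at chr4:136391928-136392177 on the minus strand, Ephb3 at chr16:21204618-21204827 and Ephb4 at chr5:137791087-137791336 on the plus strand, Efnb1 at chrX:96331150-96331399 on the plus strand and Efnb2 at chr8:8661243-8661492 on the minus strand. Capitals mark the GC box GGGCGG and the CCAAT box CCAAT on either strand.
Ephb2: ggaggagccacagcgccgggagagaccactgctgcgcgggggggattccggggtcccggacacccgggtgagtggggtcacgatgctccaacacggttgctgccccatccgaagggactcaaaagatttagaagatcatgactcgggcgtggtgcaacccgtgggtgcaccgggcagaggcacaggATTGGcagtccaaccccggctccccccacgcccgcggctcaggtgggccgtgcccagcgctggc
Ephb3: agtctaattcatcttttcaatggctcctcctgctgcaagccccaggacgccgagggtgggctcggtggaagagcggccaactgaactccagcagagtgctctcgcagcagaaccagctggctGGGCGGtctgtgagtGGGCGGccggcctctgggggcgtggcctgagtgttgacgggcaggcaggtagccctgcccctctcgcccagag
Ephb4: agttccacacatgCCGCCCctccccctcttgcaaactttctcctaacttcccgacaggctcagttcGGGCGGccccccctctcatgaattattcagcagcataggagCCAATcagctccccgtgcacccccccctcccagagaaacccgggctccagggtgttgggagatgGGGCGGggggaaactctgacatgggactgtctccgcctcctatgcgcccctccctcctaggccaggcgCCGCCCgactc
Efnb1: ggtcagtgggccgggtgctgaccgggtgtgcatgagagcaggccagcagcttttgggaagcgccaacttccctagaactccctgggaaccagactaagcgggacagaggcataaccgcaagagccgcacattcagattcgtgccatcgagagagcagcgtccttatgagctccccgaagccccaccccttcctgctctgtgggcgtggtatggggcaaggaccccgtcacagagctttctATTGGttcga
Efnb2: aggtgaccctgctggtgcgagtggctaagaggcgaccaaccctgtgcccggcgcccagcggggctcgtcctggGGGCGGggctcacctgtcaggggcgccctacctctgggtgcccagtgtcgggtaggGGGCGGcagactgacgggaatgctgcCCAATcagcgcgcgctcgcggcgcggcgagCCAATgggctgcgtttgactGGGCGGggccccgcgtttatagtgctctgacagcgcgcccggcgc
All 5 windows are rich in G and C. In the full 250 bases the GC content is 68.4% for Ephb2, 65.6% for Ephb3, 64.0% for Ephb4, 60.0% for Efnb1 and 72.0% for Efnb2, and the quartiles of all 32851 mouse promoters are 45.2% and 61.2%. The TCF/LEF factors of the Wnt pathway bind letters such as CTTTGAA, and besides this form its close variant CTTTGAT, as well as the related form CTTTGTA and its own close variant CTTTGTT, were searched on both strands. None of the 5 windows holds any of these, Epha2 holds 1, and 14.8% of all promoters hold at least 1. The GC box occurs 4 times in Ephb4, 3 times in Efnb2 and 2 times in Ephb3 and is found in 32.7% of promoters, and the CCAAT box is found in 33.8%. The E-box CAGCTG is present in Ephb3 alone among the 7 genes and in 13.0% of promoters. The E-box CACGTG is in none of the 7 and in 6.02% of promoters. A search of these windows says nothing of enhancers or of what binds.

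Between the lowest and the highest population mean, Ephb3 spanned 24.0-fold, Ephb2 5.33-fold and Ephb4 5.30-fold, while Epha2 and the 3 ephrins spanned 2.06-fold to 3.05-fold. The test among all 5 populations called 4 of the 7 genes, Ephb2, Ephb3, Ephb4 and Efna1, at an adjusted p under 0.01 (Benjamini-Hochberg over all genes tested, edgeR's quasi-likelihood F-test). In the same test 36.3% of all genes were called. The adjusted p was 0.000855 for Ephb2, 0.000248 for Ephb3, 0.000522 for Ephb4, 0.00751 for Efna1, 0.0167 for Efnb1, 0.0283 for Efnb2 and 0.251 for Epha2. The call of Efna1 was made in 2 of the 10 fits that left out 1 library, those without a P3 library, and had an adjusted p of 0.0130 to 0.0279 in the other 8. Without the libraries labelled P2 and P3, Ephb3 had an adjusted p of 0.0108, Efna1 of 0.0244 and Efnb1 of 0.00625.

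**Figure D1:**
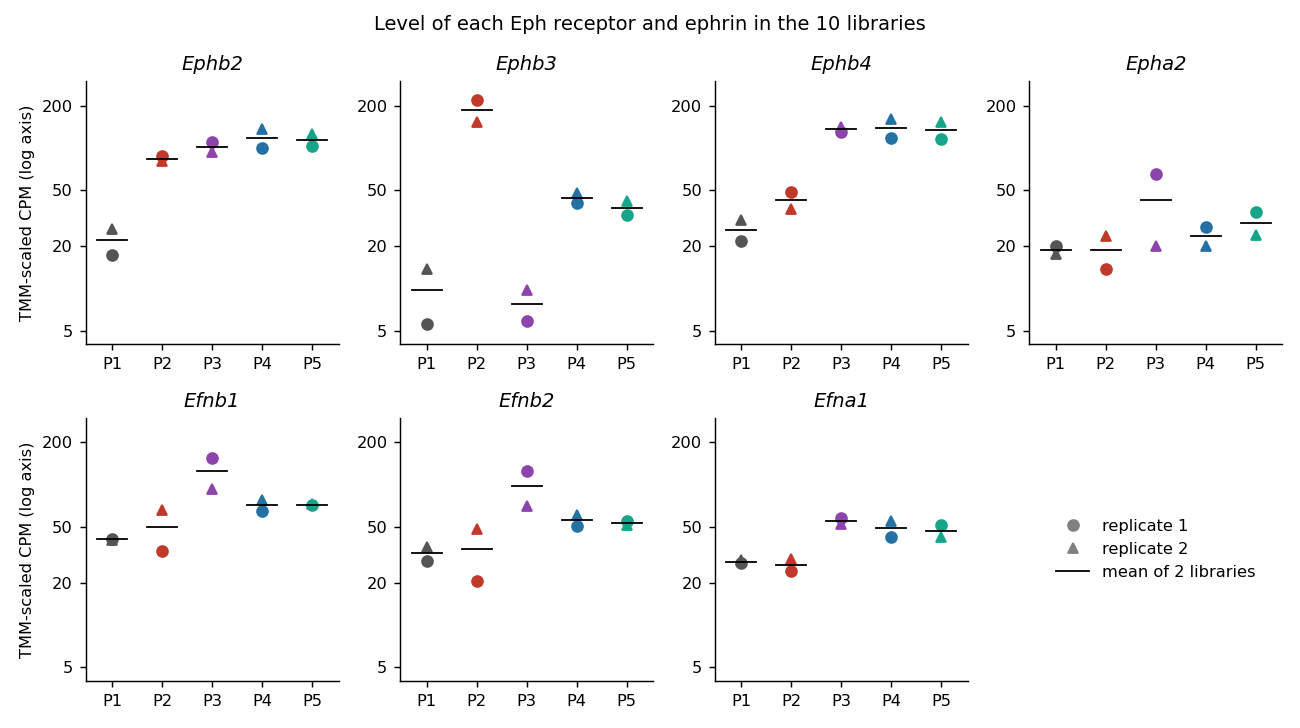
Levels of the 7 genes in TMM-scaled CPM, on a log axis, for the 5 populations. Circles and triangles are the 2 libraries of a population and lines are their means. Ephb3 is highest in P2, at 221 and 153, while Ephb2 and Ephb4 are lowest in P1.

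Ephb2, the receptor used to grade cells by their place in the crypt, was low in P1 and higher in the other 4 populations. On NCBIM37 it lies at chr4:136203454-136391903 on the minus strand. The P1 libraries held 17.4 and 26.7 CPM, those labelled P2 87.3 and 80.3, those labelled P3 109 and 93.9, the P4 libraries 99.5 and 136 and the P5 libraries 103 and 126. The 2 P1 libraries lay below the other 8 without overlap. From low to high the means ran P1, P2, P3, P5 and P4, and none of the neighbouring pairs above P1 was called.

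Ephb3, the receptor known to be needed for Paneth cells to stay at the crypt base, had the widest range of the 7. It lies at chr16:21204828-21223378 of NCBIM37 on the plus strand. P1 gave 5.58 and 13.8 CPM, P2 gave 221 and 153, P3 gave 5.82 and 9.74, P4 gave 40.3 and 47.6, and P5 gave 33.1 and 42.1. P2 lay above all other libraries, P4 and P5 overlapped each other, and P1 and P3 overlapped at the bottom. Its fewest reads were 11, in P3 replicate 1, and its lowest level, 5.58, rests on 33 reads in P1 replicate 1. In the order P3, P1, P5, P4 and P2, the pairs P1 and P5 and P4 and P2 were called and the other neighbours were not.

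Ephb4, a receptor that binds ephrin-B2, was high in P3, P4 and P5 and low in P1 and P2. The gene occupies chr5:137791337-137819897 of NCBIM37 on the plus strand. The P1 libraries held 21.6 and 30.9 CPM, those labelled P2 48.6 and 36.7, those labelled P3 130 and 141, the P4 libraries 117 and 161 and the P5 libraries 116 and 154. The 4 libraries of P1 and P2 lay below the other 6 without overlap. Among neighbours in the order P1, P2, P5, P3 and P4, only P2 and P5 were called. The gene overlaps Zan on the opposite strand by 33 bases, and the counts were made without strand.

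Epha2, an A-class receptor that binds ephrin-A1, showed no call in any of the comparisons of the fit reported. Scaled to the total of non-mitochondrial reads, all 7 genes, Epha2 among them, were called in P2 against P3, beside 5143 of all 13887 genes. Its position is chr4:140857155-140885299 of NCBIM37 on the plus strand. P1 gave 20.1 and 17.7 CPM, P2 gave 13.7 and 23.8, P3 gave 65.1 and 19.9, P4 gave 27.2 and 20.1, and P5 gave 34.7 and 24.1. P3 replicate 1 held the highest value and P3 replicate 2 lay among the other populations, so the P3 mean of 42.5 ± 31.9 (SD, n = 2) rests on 1 library.

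Efnb1, an ephrin-B ligand, had its highest mean in P3. The gene sits at chrX:96331469-96344330 of NCBIM37 on the plus strand. The P1 libraries held 40.9 and 40.5 CPM, those labelled P2 33.4 and 65.8, those labelled P3 156 and 92.5, the P4 libraries 65.3 and 78.3 and the P5 libraries 72.0 and 72.3. The P3 libraries lay above the other 8, and the P1 libraries lay below P3, P4 and P5 but inside the range of P2.

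Efnb2, the other ephrin-B ligand, followed the same order of populations except that P4 lay above P5. It is found at chr8:8617434-8661239 of NCBIM37 on the minus strand. P1 gave 28.7 and 36.0 CPM, P2 gave 20.7 and 48.7, P3 gave 125 and 70.8, P4 gave 50.9 and 60.7, and P5 gave 55.2 and 51.2. Again the 2 P3 libraries lay above the other 8 and P1 overlapped only P2.

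Efna1, the ligand of EphA2, spanned the narrowest range, 2.06-fold between population means. It occupies chr3:89075655-89085064 of NCBIM37 on the minus strand. The P1 libraries held 27.5 and 29.0 CPM, those labelled P2 24.3 and 29.4, those labelled P3 57.7 and 52.7, the P4 libraries 42.6 and 55.0 and the P5 libraries 51.4 and 42.6. The 4 libraries of P1 and P2 lay below the other 6 without overlap, as for Ephb4. For Epha2, Efnb1, Efnb2 and Efna1 no 2 populations that were neighbours in the order of means were called.

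Per kilobase of exon, which allows genes to be set side by side, a different member led in different populations. In P1 the ligands led, with Efna1 at 15.5 ± 0.574 (SD, n = 2) and Efnb1 at 11.8 ± 0.0722 CPM per kilobase, and Ephb2 and Ephb3 came last at 1.75 ± 0.521 and 1.54 ± 0.930. In P2 Ephb3 led at 29.7 ± 7.71, and Efna1 followed at 14.7 ± 1.95, within the spread of Efnb1 at 14.4 ± 6.63. In P3 Efnb1 led at 36.0 ± 13.0 but overlapped Efna1 at 30.1 ± 1.92 and Ephb4 at 29.2 ± 1.69, and Ephb3 came last at 1.24 ± 0.441. In P4 and P5 Ephb4 led at 30.0 ± 6.70 and 29.1 ± 5.79, with Efna1 next at 26.7 ± 4.79 and 25.7 ± 3.42, within the spread. Measured against the longest transcript in place of all exons, Ephb2 and Ephb3 changed places in P1, at 2.02 and 2.05, and Epha2 and Ephb3 in P5, at 7.51 and 7.93 in place of 6.29 and 5.98.

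Ratios between members within a library do not depend on how libraries were scaled. The ratio of Ephb3 to Ephb2, per kilobase, was 5.09 and 3.82 in P2 and 0.107 and 0.208 in P3. P1 gave 0.642 and 1.04, P4 gave 0.811 and 0.703, and P5 gave 0.645 and 0.670. P2 and P3 thus stood on either side of the other 6 libraries without overlap. The ratio of Ephb4 to Ephb2 was 1.51 and 1.24 in P2 and lay between 3.06 and 4.09 in the other 8.

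The 2 ephrin-B ligands kept a nearly fixed ratio, with 0.446 to 0.641 Efnb2 per Efnb1 in all 10 libraries. Summed ephrin-B over summed EphB was 2.58 and 1.76 in P1, 1.90 and 1.05 in P3, and 0.266 and 0.758 in P2, while P4 gave 0.747 and 0.667 and P5 gave 0.843 and 0.635. The ratio was above 1 in the 4 libraries of P1 and P3 and below 1 in the other 6. With 2 libraries against 2, an exact two-sided permutation test cannot give a p below 0.333, so the ratios are given without one.

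**Figure D2:**
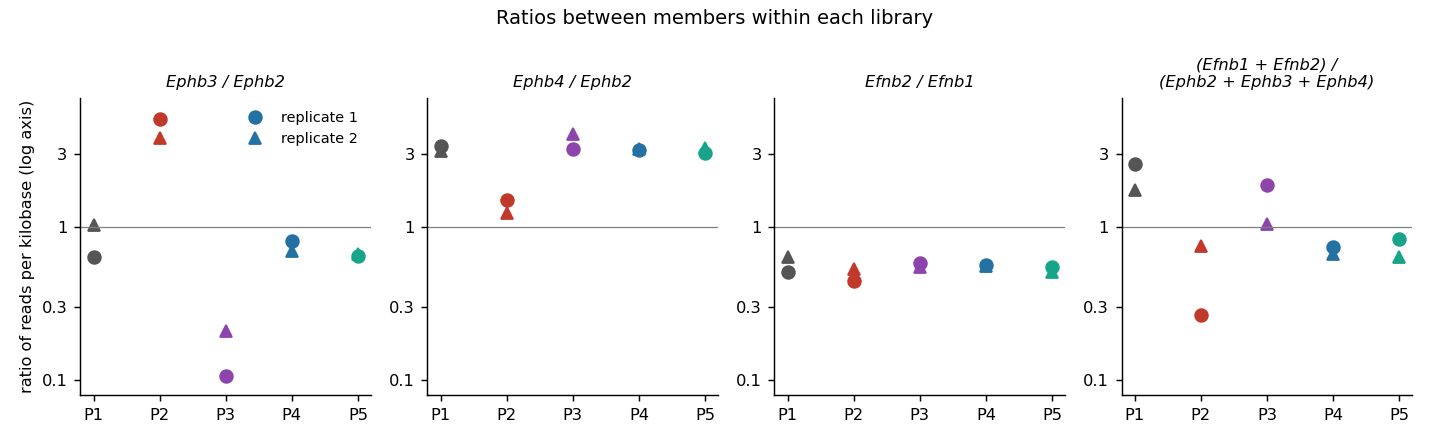
Ratios of reads per kilobase within each library, on a log axis, with the line at 1 marking equal levels. Circles are replicate 1 and triangles replicate 2. The ratio of Ephb3 to Ephb2 is above 3 in P2 and below 0.3 in P3, while that of Efnb2 to Efnb1 stays between 0.446 and 0.641.

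P1, the OSCARlow EF1alow gate with the most enterocyte transcripts, was compared with P4, the gate of medium OSCAR at the same EF1a brightness. All 3 EphB receptors were lower in P1, and none of the 7 genes was higher. Ephb2 was 5.33-fold lower, at 22.0 ± 6.57 against 118 ± 25.5 (SD, n = 2 each), with a log2 fold change of -2.41 ± 0.27 (SE) and an adjusted p of 0.000899 in edgeR. Ephb4 was 5.30-fold lower (-2.40 ± 0.28, adjusted p of 0.000899) and Ephb3 4.52-fold lower (-2.18 ± 0.40, adjusted p of 0.00323). The 3 called are of 7, where 9.44% of all genes tested were called lower and 23.5% in either direction. Of the genes called, 59.8% were higher in P1, a share that was 43.2% with upper quartile scaling, 46.9% with mitochondrial genes removed and 19.0% when scaled to the total of non-mitochondrial reads, a choice made after the data were seen. The ligands had smaller differences that did not pass, with -0.82 ± 0.33 for Efnb1, -0.79 ± 0.38 for Efnb2 and -0.79 ± 0.21 for Efna1, and adjusted p of 0.0725, 0.125 and 0.0160. The median over the 7 was -0.82, against -0.06 over all genes. Without P4 replicate 1 or P4 replicate 2 no gene of any kind was called, and without P1 replicate 1, the library with the most lymphocyte transcripts, 2 of the 7 were called and 5.83% of all genes. The part of lymphocyte RNA in these differences was not tested.

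Against P5, the gate of medium OSCAR and high EF1a brightness, P1 again had the same 3 receptors lower. The log2 fold changes were -2.38 ± 0.27 for Ephb2, -1.95 ± 0.40 for Ephb3 and -2.36 ± 0.28 for Ephb4, with adjusted p of 0.00138, 0.00586 and 0.00139, and 8.58% of all genes were called lower. Of the genes called, 56.7% were higher in P1, against 43.0%, 46.2% and 16.3% under the same 3 scalings. P4 and P5 are separate libraries, but the P1 libraries are the same in both comparisons. None of the 3 was called without P1 replicate 1 or without P5 replicate 2, where 0.804% and 0% of all genes were called, and Ephb3 was also not called without P4 replicate 1, P4 replicate 2 or P5 replicate 1 (adjusted p of 0.0104, 0.0105 and 0.0175). Fitted without the libraries labelled P2 and P3, the 3 receptors were called in P1 against P4 and against P5.

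Between P5 and P4, which share the medium OSCAR gate and differ in EF1a brightness, the 7 genes differed little. Their log2 fold changes ran from -0.22 for Ephb3 to 0.32 for Epha2, with standard errors of 0.21 to 0.49. None was called by edgeR, DESeq2 or limma-voom, none had an unadjusted p under 0.05, and 0% of all genes were called.

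P2, by its label the OSCARhigh gate, was compared with P1 and with P4, all at low EF1a brightness. With the labels of P2 and P3 exchanged, the P2 libraries would be OSCARlow EF1ahigh. Ephb3 was higher in P2 than in P1 and in P4. Against P1 it was 19.2-fold higher, with a log2 fold change of 4.26 ± 0.43 and an adjusted p of 0.000258 in edgeR, and Ephb2 was 3.80-fold higher (1.92 ± 0.27, adjusted p of 0.000675). These 2 of the 7 were called, where 13.9% of all genes tested were called higher. Of the genes called, 47.8% were higher in P2, and 26.8% when scaled to non-mitochondrial totals. Ephb4 stood at 0.70 ± 0.27 with an adjusted p of 0.0619. The other 4, Epha2 and the 3 ligands, lay between -0.07 and 0.29. The 2 calls were made in each of the 10 fits that left out 1 library.

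Against P4, P2 had more Ephb3 and less Ephb4. Ephb3 was 4.25-fold higher, at 187 ± 48.5 against 43.9 ± 5.16 (SD, n = 2 each; log2 fold change 2.09 ± 0.38, adjusted p of 0.00402), and Ephb4 3.26-fold lower, at 42.7 ± 8.45 against 139 ± 31.1 (-1.71 ± 0.27, adjusted p of 0.00237). The 2 called are 1 in each direction, where 8.02% of all genes were called higher and 6.30% lower. Efna1, at -0.86 ± 0.22, had an adjusted p of 0.0167, and Ephb2, at -0.49 ± 0.25, one of 0.181. The 2 comparisons share the P2 libraries, and P2 against P5 gave 2.31 ± 0.38 for Ephb3 and -1.66 ± 0.27 for Ephb4 (adjusted p of 0.00241 and 0.00233), where 8.75% of all genes were called higher and 7.12% lower.

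The P2 values depend on the scaling. With mitochondrial genes removed, Ephb3 stood at 2.04 in P2 against P4. Scaled to non-mitochondrial totals, the median gene moved by up to 1.17 on the log2 scale, Ephb3 stood at 0.91 in P2 against P4 (adjusted p of 0.0753) and at 1.22 in P2 against P5 (adjusted p of 0.0264), and Ephb2 at -1.67 in P2 against P4 (adjusted p of 0.000796). Of the genes called in P2 against P4, 56.0% were higher in P2 in the fit reported and 7.52% under these totals, and in P2 against P5 55.1% and 9.25%. Over the fits that left out 1 library, P2 against P4 gave 1.77 to 2.30 for Ephb3 and -1.95 to -1.47 for Ephb4. P2 against P5 gave 1.99 to 2.53 and -1.90 to -1.46. In neither comparison did the call of Ephb3 or of Ephb4 hold in every one of these fits.

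**Figure D3:**
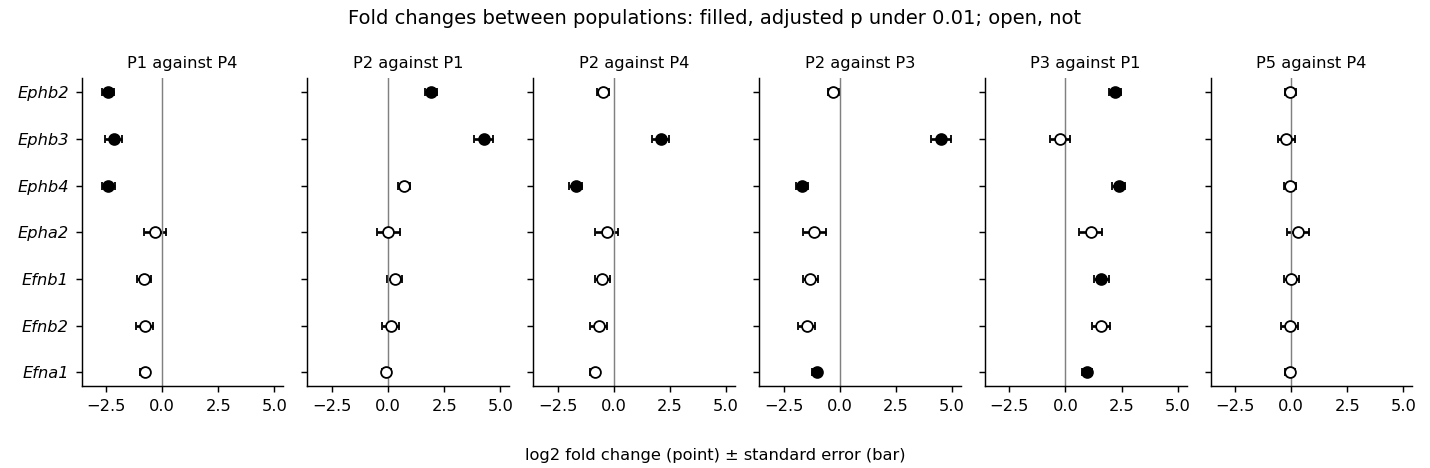
Log2 fold changes of the 7 genes in 6 comparisons, with bars of 1 standard error. Filled points passed an adjusted p of 0.01 and open points did not. The 3 EphB receptors are filled in P1 against P4, Ephb3 is the farthest right in P2 against P1 and P2 against P3, and all points of P5 against P4 lie near 0.

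P3, by its label the OSCARlow EF1ahigh gate, was compared with P1, the OSCARlow gate of low EF1a brightness. Under exchanged labels of P2 and P3, this would compare OSCARhigh with OSCARlow, both of low EF1a brightness. A pair of receptors and a pair of ligands were higher in P3. Ephb4 was 5.17-fold higher in P3 (log2 fold change 2.37 ± 0.28, adjusted p of 0.00148 in edgeR), Ephb2 4.60-fold (2.20 ± 0.27, adjusted p of 0.00152), Efnb1 3.03-fold (1.60 ± 0.34, adjusted p of 0.00754) and Efna1 1.95-fold (0.96 ± 0.22, adjusted p of 0.00993). These 4 of the 7 were called, where 8.02% of all genes were called higher and 15.6% in either direction. Of the genes called, 51.4% were higher in P3, and 83.5% when scaled to non-mitochondrial totals. Efnb2 had a difference as large as that of Efnb1, 1.59 ± 0.39, with an adjusted p of 0.0143, and Ephb3 stood at -0.25 ± 0.45. The median over the 7 was 1.59, against -0.03 over all genes. Of the 10 fits that left out 1 library, Efna1 was called in none and Efnb1 in 3, those without P2 replicate 1, P2 replicate 2 or P3 replicate 2, and its adjusted p in the other 7 was 0.0134 to 0.0468. Ephb2 and Ephb4 were called in 9 of the 10, and without P1 replicate 1 no gene was called. With P3 replicate 1, the library with 59.2% mitochondrial reads, left out, Efnb1 was at 1.20 and Efnb2 at 1.14.

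P2 and P3, the 2 gates whose labels are in doubt, differed most in Ephb3. It was 22.9-fold higher in P2 (log2 fold change 4.51 ± 0.45, adjusted p of 0.000220 in edgeR), while Ephb4 was 3.19-fold lower (-1.67 ± 0.28, adjusted p of 0.00177) and Efna1 2.05-fold lower (-1.03 ± 0.22, adjusted p of 0.00611). The 3 called were 1 higher and 2 lower, where 10.5% and 10.6% of all genes were. Of the genes called, 49.7% were higher in P2, and 13.2% when scaled to non-mitochondrial totals. Efnb1 and Efnb2 stood at -1.31 ± 0.34 and -1.48 ± 0.39 with adjusted p of 0.0145 and 0.0170, and Ephb2 at -0.28 ± 0.26 with one of 0.420. If the 2 labels were exchanged, each sign would turn and each size would stay. Over the fits that left out 1 library, Ephb3 stood at 4.22 to 4.98, Ephb4 at -1.90 to -1.49 and Efna1 at -1.19 to -0.92. The call of Ephb3 held in all of these fits, that of Ephb4 in most and that of Efna1 in none.

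Ephb3 was also lower in P3 than in the medium OSCAR gates, at -2.43 ± 0.43 against P4 and -2.20 ± 0.43 against P5, but these values did not pass, with adjusted p of 0.0997 and 0.259. In both comparisons edgeR called 0 of the 7 genes and 0% of all genes. At an unadjusted p under 0.05 there were 2 of the 7 against P4 and 3 against P5, beside 2080 and 1587 of all 13708 genes. DESeq2 called 1 in each, Ephb3, and limma-voom none, and the calls of these 2 tools among all genes are not given here. The other 6 genes lay between -0.21 and 0.87 in the 2 comparisons.

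The effect of EF1a brightness was then set against itself at both OSCAR levels, as P3 minus P1 at low OSCAR less P5 minus P4 at medium OSCAR. This reading holds only for the labels as given. Were those of P2 and P3 exchanged, P3 minus P1 would compare OSCAR levels at low EF1a brightness, not EF1a brightness. For Ephb2 the difference between the 2 effects was 2.24 ± 0.36 on the log2 scale and for Ephb4 2.41 ± 0.38, with adjusted p of 0.0108 and 0.0106 in edgeR, just short of the threshold. None of the 7 was called, where 0.817% of all genes were. Of the genes called, 40.2% were positive. That share was 65.7%, 55.5% and 88.0% with upper quartile scaling, mitochondrial genes removed and non-mitochondrial totals. At an unadjusted p under 0.05 there were 5 of the 7, beside 4653 of all 13708 genes. DESeq2 and limma-voom called 2 each, Ephb2 and Ephb4, and their calls among all genes are not given here. The value was 1.59 ± 0.47 for Efnb1 (adjusted p of 0.0455), and that of Ephb3 was -0.03 ± 0.57. The 2 libraries of P3 are those rich in mitochondrial reads, and the part of that in the difference was not tested.

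The rest of the family was sparser. Of the 10 other Eph receptors, Epha1 and Epha4 passed the filter, and of the 5 other ephrins, Efna3, Efna4 and Efnb3 did. None of these 5 was called among the 5 populations. Epha1 ranged from 19.5 to 109 CPM, with its lowest mean in P2 (20.4 ± 1.34, SD, n = 2), and its adjusted p among the 5 populations was 0.0501. Efna4 stood at 5.91 and 2.67 in P1 and at 20.4 and 24.0 in P4, and this pair was called (log2 fold change -2.37 ± 0.53, adjusted p of 0.00715 in edgeR). Epha1 and Efna4 each overlap exons of a gene on the other strand, by 156 bases of Zyx and 168 bases of 4731419I09Rik. Efna3 ranged from 0.845 to 9.08, Epha4 from 1.50 to 8.71 and Efnb3 from 0 to 1.94. Epha5, Epha6, Epha8, Ephb1 and Ephb6 had no read in any library, Epha3 and Epha10 at most 1, Efna5 at most 5, Efna2 at most 7 and Epha7 at most 10. A count of 0 in a single library allows up to 3 reads, which is 0.463 to 0.778 CPM before scaling.

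Genes that act downstream of the receptors were taken from a fixed list of 24, of which 22 were tested and 10 called among the 5 populations, where 36.3% of all genes were. In P1 against P4, where the receptors fell, 7 of the 22 rose and 1 fell, where 14.0% of all genes were called higher and 9.44% lower, with a median log2 fold change of 0.71 against -0.06 over all genes. The 4 with the smallest p were Src, Fyn, Ngef and Arhgef16. Src, a kinase recruited by active Eph receptors, held 272 and 299 CPM in the P1 libraries, against 60.4 to 143 in the remaining 8. Ngef, an exchange factor that binds EphA receptors, was lowest in P2 at 9.12 and 18.5 and stood at 95.0 and 101 in P1. Arhgef16, a relative of Ngef, was 277 and 347 in P1 and 83.1 to 169 elsewhere. Fyn, a Src family kinase that lymphocytes also express, was 61.7 and 36.5 in P2, 32.1 and 9.01 in P1 and at most 4.11 in the other 6.

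On the ligand side, 4 of 10 genes were called among the 5 populations, a share near the 36.3% of all genes. Sdcbp, which encodes syntenin and binds the tail of ephrin-B, stood at 853 and 768 in P1, 280 and 371 in P2 and 148 to 237 in the other 6. Pard6b, a polarity protein bound by ephrin-B1, was 110 and 133 in P1 and 19.5 to 51.3 elsewhere. Tle4, a Groucho corepressor, was lowest in P2 at 17.9 and 20.7, and Nck2, an adaptor, was 98.7 and 70.4 in P1 and 35.9 to 52.4 elsewhere. The ligand genes themselves did not pass in P1 against P4, where 2 of the 10 genes on their side were called higher and none lower, beside 14.0% and 9.44% of all genes.

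Of the genes that cut Eph and ephrin proteins or act with them in adhesion, 6 of the 8 tested were called among the 5 populations, beside 36.3% of all genes. Adam10, the protease that cleaves ephrins and E-cadherin, was 34.0 and 44.7 in P1, 69.3 and 91.2 in P2 and 99.97 to 183 in the other 6. Ncstn, a subunit of gamma-secretase, followed it at 46.6 and 56.9 in P1, 97.0 and 122 in P2 and 121 to 181 elsewhere. Ctnna1, alpha-catenin, ran the other way at 1313 and 1154 in P1 and 368 to 605 elsewhere. Cdh1, E-cadherin, was named after its values were seen: it stood at 217 and 261 in P1 and 581 to 1451 in the other 8. In P1 against P4, 2 of the 8 were called higher and 3 lower, beside 14.0% and 9.44% of all genes.

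The list of Wnt targets, which the EphB receptors belong to by their known regulation, had 9 of 14 called among the 5 populations, beside 36.3% of all genes. In P1 against P4, 7 fell and 1 rose, beside 9.44% and 14.0%, with a median of -1.55. In P2 against P4, 3 rose and 1 fell, beside 8.02% and 6.30%, with a median of -0.38 against 0.05 over all genes. The 3 that rose were Sox9, Nkd1 and Prox1. Lgr5, the stem cell receptor, was high in P4 (94.3 and 114), P5 (71.8 and 103) and P2 (80.3 and 81.0) and low in P1 (10.5 and 9.67) and P3 (4.23 and 9.30). Sox9, a crypt and Paneth cell factor, led in P2 (148 and 126), followed by P4 (46.9 and 60.0), P5 (38.5 and 55.4), P3 (20.6 and 33.9) and P1 (16.2 and 13.0). Nkd1, a feedback inhibitor of the pathway, was 72.1 and 64.1 in P2 and at most 7.17 in the other 8. Prox1, which the study's text reports as enriched in enteroendocrine cells, was 14.6 and 18.5 in P2 and at most 2.47 elsewhere. Enteroendocrine genes summed to 4781 and 11551 CPM in P2 and to 23.0 to 616 elsewhere, and their part in the Prox1 values was not tested. Ephb3 and Sox9 were both highest in P2, whereas Lgr5 was not.

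**Figure D4:**
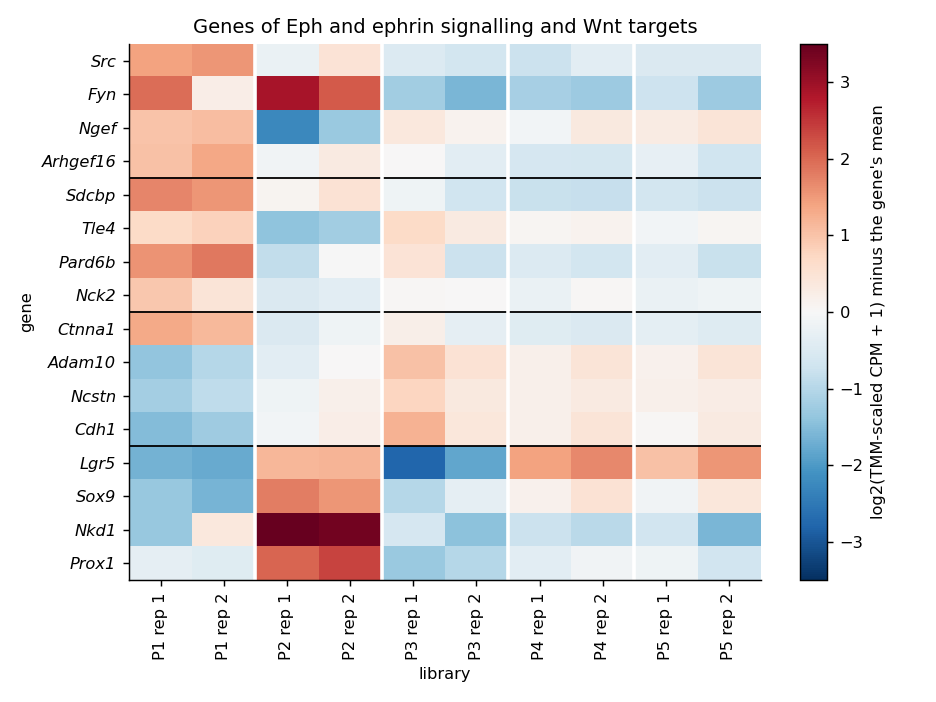
Log2 of TMM-scaled CPM plus 1, less the mean of the gene, for named genes of receptor signalling (top block), ligand signalling, cleavage and adhesion, and Wnt targets (bottom block) in the 10 libraries. Sdcbp and Src are red in P1, Adam10 and Cdh1 blue in P1, and Nkd1, Sox9 and Prox1 red in P2.

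The genes most like each member over the 10 libraries were named by Pearson's correlation of log2 CPM, as a description, since the libraries share their population. Among the other genes tested the nearest to Efnb1 was Efnb2, and the nearest to Efnb2 was Efnb1, with r = 0.98. For Ephb3 they were Foxp4, Crtc1 and Peli2 (r = 0.99, 0.99 and 0.98). For Ephb2 they were Nup214, Larp1 and Tmc4 (0.99, 0.99 and 0.98), and for Ephb4 Nup54, Akap1 and Nop16 (0.99 each). Efnb1 was next nearest to Cdh17 and Tspan15 and Efnb2 to Tspan15 and the pseudogene Gm15429. For Epha2 they were Heph, Atp6v0a2 and Rnf121 (0.95, 0.94 and 0.92), and for Efna1 Qrsl1, the pseudogene Rps25-ps1 and Erbb2 (0.98, 0.97 and 0.97). Among the members, Ephb2 correlated with Ephb4 at 0.86 and with Ephb3 at 0.43, and Ephb3 with Ephb4 at -0.01.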

How the data were processed

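Crypt cells of the mouse small intestine were sorted into 5 populations and sequenced as poly-A RNA in 2 libraries each. The authors deposited raw counts per gene, made with TopHat2 2.1.0, Bowtie and HTSeq 0.11.2 on exons of mm9, without strand and without reads that aligned to more than 1 place. No source pairs a replicate number with an animal, and p-values measure the spread between these samples.

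The 183 rRNA rows were removed, genes were filtered with filterByExpr and scaled by TMM, and the 5 population means were fitted over all 10 libraries in edgeR 4.0.16 (R 4.3.3). Contrasts were tested with quasi-likelihood F-tests, adjusted by Benjamini-Hochberg across 13708 genes, and called at an adjusted p under 0.01. Standard errors were derived from the F statistics. limma 3.58.1, DESeq2 1.42.0, other scalings, filters and left-out libraries served as alternatives. The fit was tested on simulated data. Lengths and positions came from GENCODE for NCBIM37, and promoters from RefSeq GRCm38.p6. Floors cover counting error only, while the values after ± are the SD between the libraries of a population or the SE from the fit.

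The 7 genes, the lists and the tests were chosen with earlier results of these data known. Named by rule were the 7 genes, their relatives, at most 4 called genes per list, and the 3 genes most like each member; a further gene of the cleavage list that the rule picked is not reported here. Further marker lists (goblet, tuft, enteroendocrine, cycling, stromal, neural) were used to check the sort and are given in the closing section.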

Additional observations from a re-analysis of the deposited data

How the results depend on the processing

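Of 566 values of single genes recomputed under alternatives other than leaving out a library, 478 kept their side of the threshold, 69 passed it newly and 19 no longer passed, and no fold change among them changed sign. In the 420 values from fits that left out 1 library, 344 stayed, 67 no longer passed and 9 passed newly. Such a fit leaves a population with 1 library, which is assumed to vary like the others. With 1 library left out, the number of the 7 genes called changed in every comparison that had calls, except P2 against P1. The number called among all genes changed in these fits as well, so the changes are not particular to the 7. None of the 7 was called in any such fit for P5 against P4, P3 against P5, P3 against P4 or the difference between EF1a effects, where few or no genes of any kind were called.

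Without a filter on low counts, 5 genes were called in P1 against P4, 6 in P2 against P3, 1 in P3 against P5, 1 in P3 against P4 and 4 for the EF1a effects. DESeq2's test called 5 in P2 against P3, 1 in P3 against P5, 1 in P3 against P4 and 2 for the EF1a effects. Fitted on only the 2 populations compared, 0 were called in P3 against P1 and 1 in P2 against P3, with fewer libraries in the fit. At a threshold of 0.05, 5 were called in P2 against P3 and 4 for the EF1a effects. For the EF1a effects 2 were also called with DESeq2 size factors (362 of 13708 genes), upper quartile scaling (481 of 13708), limma-voom and mitochondrial genes removed (375 of 13887). Scaled to non-mitochondrial totals, 5 were called in P2 against P4, 6 in P1 against P4 and 7 in P2 against P3. There 5466, 3974 and 5143 of all 13887 genes were called. P2 against P5 gave 5, P1 against P5 gave 5 and the EF1a effects 3, where 5275, 3313 and 925 of all genes were called. For the settings above without such a number, the calls among all genes are not given here. Apart from the 2 cases whose construction is named, the cause was not tested.

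Beside the shift under non-mitochondrial totals, the median gene moved by -0.27 to 0.21 on the log2 scale with upper quartile scaling and by -0.20 to 0.14 with mitochondrial genes removed, and by less than 0.1 with DESeq2 size factors. With the replicate number as a block, 2 genes, Ephb2 and Ephb4, were called for the EF1a effects, at 2.26 and 2.42 (adjusted p of 0.00683 and 0.00636), and Efna1 in P3 against P1 was not (adjusted p of 0.0103). Same-numbered libraries deviated together with correlations of -0.06 to 0.55, with a median of 0.26 and values over 0.1 in 9 of 10 pairs of populations. The labels do not say that a number marks an animal. Of the 21 genes named as most alike, 5 were among the first 3 by Spearman's correlation.

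Among the 7 genes the fewest reads were those of Ephb3, at 11 and 44 in P3 and 33 in P1 replicate 1. Of their tested relatives, Efnb3 fell to 0 reads, Efna3 to 3, Epha4 to 6 and Efna4 to 7.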

Other observations

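Among genes not described above, the secretory lists were set beside Ephb3, and the Paneth list did not always move with it. In P2 against P4, where Ephb3 was called higher, 9 of 9 Paneth genes, 7 of 9 goblet genes, 5 of 9 tuft genes and 5 of 12 enteroendocrine genes were called higher and none lower, beside 8.02% and 6.30% of all genes. In P1 against P4, where Ephb3 was called lower, 9 of 9 Paneth genes were called higher. There 1 of 9 goblet and 2 of 12 enteroendocrine genes were called lower and none higher, and of 9 tuft genes none was called. The shares of all genes were 14.0% higher and 9.44% lower. Summed over its list, the Paneth level was 627768 and 458901 CPM in P2, 21647 and 71130 in P1 and 545 to 12005 elsewhere. The part of Paneth cell RNA in the Ephb3 values was not tested. Cycling genes, low in P2, summed to 220 and 301 there, to 327 and 337 in P1 and to 668 to 2116 in the other 6 libraries, and Ephb4 was lower in P1 and P2 than in those 6.

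Stromal genes summed to at most 50.9 and neural and glial genes to at most 5.34 CPM in any library. Both sums were highest in P2 replicate 2, where Efnb1 and Efnb2 were higher than in P2 replicate 1, and their part in the ephrin values was not tested.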
